A study of Mus musculus with 12 samples.

Results

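The genes described here encode the pyruvate dehydrogenase complex, the enzymes of the tricarboxylic acid (TCA) cycle and the enzymes that feed carbon into it or exchange it with the cytosol. They were chosen by gene symbol, 30 of the 24061 symbols counted. No measured value served as a criterion, but earlier results of these data were known when they were chosen. The 12 hearts sequenced came from male mice of strain C57BL/6J, between 2 and 4 months old and on a chow diet. A group of 6 was heterozygous at the hexokinase II gene (HKII+/-, replicates 11, 12, 16, 19, 20 and 22), and the other 6 were wild type (HKII+/+, replicates 13, 14, 15, 17, 18 and 21). HKII+/- is a whole-animal genotype label, and how the allele was made is not given in the sources used here. Replicate 11 (HKII+/-) and replicate 13 (HKII+/+) carry the submitters' mark of potential outlier, so values are given with all 12 libraries and with the 10 unmarked ones (n = 5 per genotype).

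Hexokinase II commits glucose to metabolism by phosphorylating it at the start of glycolysis, whose end product pyruvate enters mitochondria. There the pyruvate dehydrogenase complex turns pyruvate into acetyl-CoA, and the TCA cycle oxidises its carbon to carbon dioxide and passes electrons to the respiratory chain. The heart draws most of its ATP from this oxidation, fed by fatty acids as well as by pyruvate, and its cardiomyocytes are packed with mitochondria. The comparison asked whether the transcripts of this machinery differ between hearts of lowered and full Hk2 gene dose.

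Deposited counts summed to between 17263209 and 51556592 per library. Levels are given as CPM, counts relative to the library total and scaled by trimmed mean of M values (TMM) factors, which correct for differences in library composition. Hk2 (chromosome 6, 82725025 to 82774454, minus strand of GRCm38) ranged from 255.7 to 354 CPM in 5 HKII+/- libraries and from 471 to 652.6 CPM in HKII+/+ libraries. The library labelled HKII+/- replicate 11 stood at 568.2 CPM, inside the HKII+/+ range and against its label. As a share of total counts, without the TMM factor, it lay below that range (446.5 CPM, against 493.7 to 578.7 in HKII+/+ libraries) and above the other HKII+/- libraries (271.5 to 351.2), and the mean difference was then -199.9 CPM (exact p = 0.00216, the smallest that 6 against 6 can give). The mean difference in Hk2 was -194.6 CPM (exact two-sided permutation p = 0.013, n = 6 each) and without the marked libraries it was -216.7 CPM (exact p = 0.00794, n = 5 each). All 5 cardiomyocyte markers were listed and summed to 49230 to 66880 CPM in the unmarked libraries. Of 3 erythroid markers, the haemoglobin genes Hba-a1 and Hbb-bs were at 0 counts throughout. The third, Alas2, was present at 14.1 to 30.04 CPM in the unmarked libraries. The sum of 5 atrial markers (Myl7, Sln, Myl4, Nppa and Bmp10) ran from 316.1 to 6835 CPM in unmarked HKII+/- and from 2361 to 5916 CPM in HKII+/+ libraries.

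Promoter windows of RefSeq (GRCm38.p6), reaching from 250 bases before to 50 bases after an annotated start, were available for 27 of the 30 genes, all but Sdhc, Idh3a and Me2. A gene can have several starts, and the 27 genes had 35 windows. A gene was counted if any of its windows held a match. They were searched on both strands for the letters bound by regulators of mitochondrial genes, since many of these transcripts were lower together as the atrial gene Myl7 was higher (values below). The letters AAGGTCA, bound by the oestrogen-related receptors, were found in Ogdh, Sdhd and Got1, 3 of 27 genes, and in 5.38% of all 27025 genes with windows. By window it was 3 of 35, against 4.72% of all windows. In Ogdh the match lay in 1 of 6 windows, and the 250 bases upstream of that start (chr11:6291920-6292169) lie inside the gene, which begins at 6291633. The letters CCGGAAG, the core bound by the GA-binding protein, were found in 5 of the 27 genes, Idh3b, Idh3g, Dlst, Sdhb and Sdhd, and in 9.93% of all genes. By window it was 5 of 35, against 8.86% of all windows. The palindromic site of nuclear respiratory factor 1 was found in 0 of the 27 and in 1.07% of all genes. In Sdhd, which held both of the others, the matches did not overlap. A match describes the sequence only. The windows below are the members whose match lies before the gene start, each as its 250 bases upstream, 5′ to 3′ on the gene's strand, with the matching letters in capitals. Got1 (chr19:43524606-43524855, minus strand) holds AAGGTCA at bases 245 to 239 upstream. Idh3g (chrX:73786898-73787147, minus strand) holds CCGGAAG at bases 104 to 98 upstream. Sdhd (chr9:50603850-50604099, minus strand) holds the same core on the opposite strand at bases 46 to 40 upstream.
Got1: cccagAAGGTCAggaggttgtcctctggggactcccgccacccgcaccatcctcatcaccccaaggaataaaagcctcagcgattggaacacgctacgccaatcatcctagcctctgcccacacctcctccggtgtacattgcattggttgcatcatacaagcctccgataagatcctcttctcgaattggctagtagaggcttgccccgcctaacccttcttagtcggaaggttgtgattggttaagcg
Idh3g: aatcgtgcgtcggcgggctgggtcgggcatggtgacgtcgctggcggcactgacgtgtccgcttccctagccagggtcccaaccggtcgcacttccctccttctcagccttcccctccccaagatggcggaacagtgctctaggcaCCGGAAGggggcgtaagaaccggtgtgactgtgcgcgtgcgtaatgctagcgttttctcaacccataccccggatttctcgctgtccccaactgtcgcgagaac
Sdhd: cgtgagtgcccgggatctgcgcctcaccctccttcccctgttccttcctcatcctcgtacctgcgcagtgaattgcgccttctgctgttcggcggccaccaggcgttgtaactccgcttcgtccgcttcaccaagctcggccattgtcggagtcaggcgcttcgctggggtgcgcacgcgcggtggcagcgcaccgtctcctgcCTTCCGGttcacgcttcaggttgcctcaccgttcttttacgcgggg

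All 30 genes passed the filter on low counts, and the lowest count of any in any library was 32 (Me2). Together they took 2.23% to 2.56% of the counts in the unmarked libraries, 1.35% in HKII+/- replicate 11 and 1.87% in HKII+/+ replicate 13. The mean log2 CPM over the 30 genes was 7.90 in replicate 11, 8.48 in replicate 13 and 8.62 to 8.87 in the unmarked libraries. By share of counts both marked libraries lay below every other library. In summed TMM-scaled CPM replicate 11 (17180) lay below them all, while replicate 13 (24620) lay above 9 of the 10 unmarked libraries (20390 to 25790).

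The marked libraries differed from the rest gene by gene and in both directions. In HKII+/- replicate 11, 22 of the 30 genes lay below the range of the 10 unmarked libraries, 3 above and 5 inside, against 45.1% of all tested genes below and 39.7% above. In HKII+/+ replicate 13, 16 lay below, 10 above and 4 inside, against 42.6% and 36.7% of all tested genes. These counts depend on the TMM factors: with total counts alone, 27 lay below and 3 above in replicate 11, and 24 lay below, 2 above (Mdh1 and Mdh2) and 4 inside in replicate 13, against 55.4% and 58.2% of all tested genes below. With TMM factors, the 16 genes below in both were Pdha1, Pdhb, Dlat, Dld and Pdhx, which is every measured part of the pyruvate dehydrogenase complex, with Cs, Aco1, Idh1, Idh3a, Idh3g, Sucla2, Sdhd, Fh1, Me1, Me2 and Got2. Dlst, Mdh2 and Pcx lay above in both, and Suclg1, Sdhb and Got1 lay below in replicate 11 and above in replicate 13. With total counts the 16 lay below in both again, as did Suclg1, Sdhb and Got1, while Mdh2 alone lay above in both and Dlst and Pcx lay inside the unmarked range in replicate 13.

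Dld, the dihydrolipoamide dehydrogenase shared by the pyruvate and oxoglutarate dehydrogenase complexes, was chosen after its values were seen because it stood lowest. It measured 75.5 CPM in replicate 11 and 491.2 to 554.6 CPM in the other HKII+/- libraries, a fold of 0.147 over their mean. In HKII+/+ hearts it measured 180.0 CPM in replicate 13 and 492.7 to 588.8 CPM in the others, a fold of 0.340. Dlst, which encodes the transacylase of the oxoglutarate dehydrogenase complex that Dld serves, lay the other way in the same libraries, in replicate 13 only with TMM factors. Its level was 1321 CPM in replicate 11, 1.68-fold over the other HKII+/- libraries, and 1201 CPM in replicate 13, 1.53-fold over the other HKII+/+ libraries. Over the 30 genes the folds ran from 0.147 (Dld) to 2.95 (Pcx) in replicate 11 and from 0.158 (Me2) to 2.63 (Mdh2) in replicate 13.

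**Figure D1:**
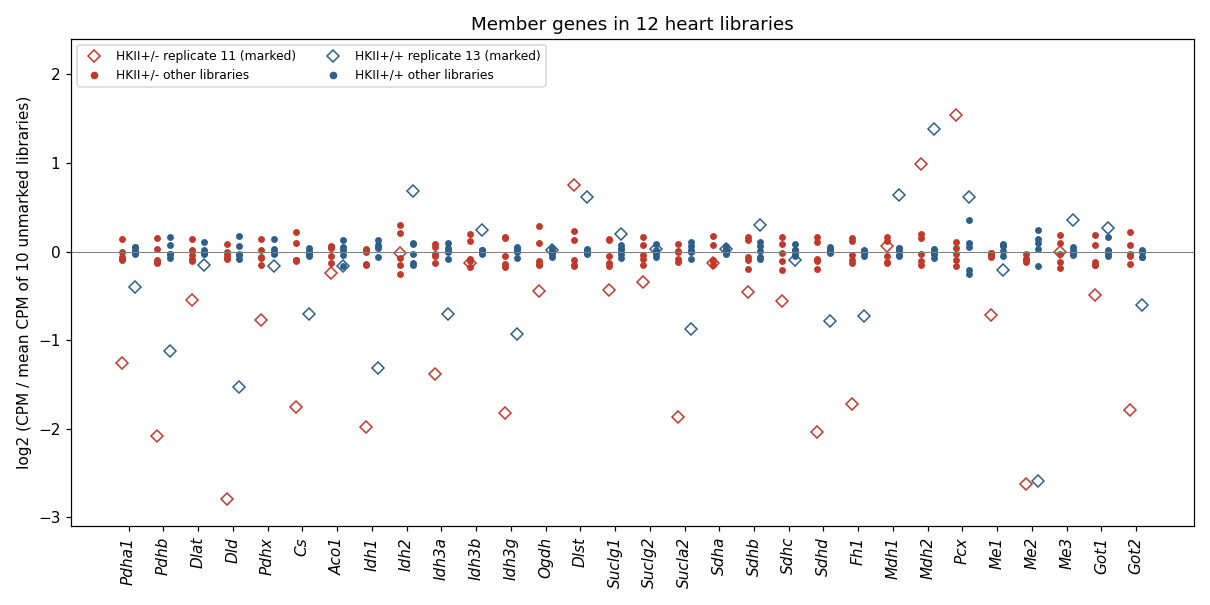
Level of each of the 30 genes in each library, as log2 of its TMM-scaled CPM over the mean CPM of the 10 unmarked libraries, with HKII+/- in red left of HKII+/+ in blue and the marked libraries as open diamonds. The diamonds of HKII+/- replicate 11 lie below the unmarked range for 22 genes and above it for 3, and those of HKII+/+ replicate 13 below it for 16 and above it for 10.

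The base composition of the transcripts moved with these folds. Transcript GC content was 40.6% to 57.7% over the 30 genes, with a median of 47.3% in the 16 genes below in both marked libraries and 55.4% in the 3 genes above in both by TMM-scaled CPM. Across the 30 genes, Spearman's rho between fold and GC content was 0.46 in replicate 11 and 0.53 in replicate 13, and across 8180 genes expressed at least as highly as the lowest of the 30 it was 0.64 and 0.69. These are descriptions across genes, which share their libraries and are not independent replicates. Got2 departed from that order, with 54.5% GC and folds of 0.286 in replicate 11 and 0.670 in replicate 13, and so did Mdh1, with 45.7% GC and folds of 1.04 and 1.56 in those libraries. In replicate 11 the summed markers of fibroblasts stood at 12610 CPM, against 960.6 to 1624 CPM in unmarked libraries, and those of airway epithelium at 241.9 CPM, against 0.215 to 1.64 CPM. All 6 fibroblast and all 5 airway markers were listed and none was at 0 in every library. Fibroblast markers stood above the unmarked range in replicate 13 as well (3930 CPM), and so did those of smooth muscle (780.0 CPM), while those of immune and endothelial cells were above it in both marked libraries. In replicate 11 the summed markers of smooth muscle and great vessels (2905 CPM, against at most 737.4), fat (719.8), nerve (55.0, against at most 10.5) and atrial cardiomyocytes (16300, against at most 6835) were also above every unmarked library. Cardiomyocyte markers summed to 167800 CPM in replicate 11 and 177000 CPM in replicate 13, above every unmarked library. So did ventricular markers (14620 and 23590 CPM, against at most 12300) and skeletal muscle markers (4.89 and 3.08 CPM, against at most 3.03). Nerve markers were above it in replicate 13 too (12.85 CPM). Atrial and airway markers in replicate 13 and erythroid markers in both lay inside the unmarked range. Fat markers in replicate 13 (23.2 CPM) lay below it. These sums carry TMM factors of 0.787 in replicate 11 and 0.760 in replicate 13, and several of the placements depend on them. As a share of total counts, ventricular and endothelial markers in replicate 11 lie inside the unmarked range. So do endothelial, smooth muscle, skeletal muscle and nerve markers in replicate 13, while erythroid markers in replicate 13 lie below it. The part of base composition or of tissue content in these differences was not tested.

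**Figure D2:**
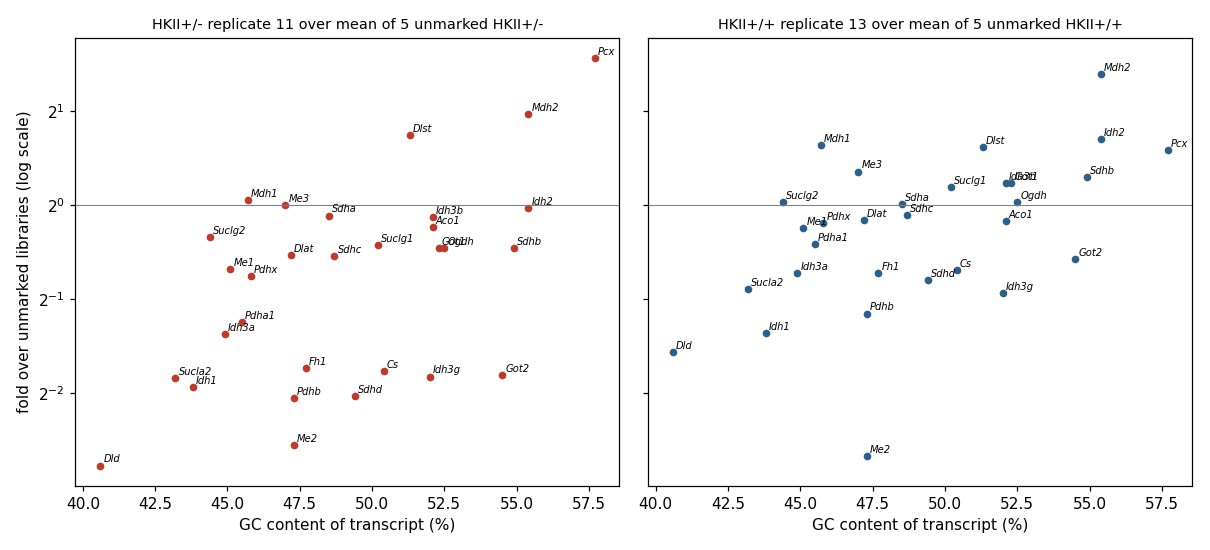
Fold of each gene in the marked library over the mean of the 5 unmarked libraries of its genotype (vertical axis, log scale) against the GC content of its transcript in percent (horizontal axis), for HKII+/- replicate 11 on the left and HKII+/+ replicate 13 on the right. Dld, lowest in GC content at 40.6%, has folds of 0.147 and 0.340, and Pcx, highest at 57.7%, has folds of 2.95 and 1.5.

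Levels of different genes were compared per kilobase of exon (CPM per kb) in the 10 unmarked libraries, with the length of the exons in consensus coding transcripts. Idh2, the mitochondrial NADP-dependent isocitrate dehydrogenase, was highest, at 1201 ± 203 CPM per kb in HKII+/- and 1166 ± 92.8 CPM per kb in HKII+/+ hearts (SD over 5 libraries). Its range over the 10 libraries, 989.9 to 1461 CPM per kb, did not touch that of the next gene. Mdh1, the cytosolic malate dehydrogenase of the malate-aspartate shuttle, followed at 882.5 ± 84.3 in HKII+/- and 879.7 ± 26.3 CPM per kb in HKII+/+ hearts. Mdh2, the mitochondrial enzyme that closes the cycle, stood at 815.2 ± 89.4 in HKII+/- and 794.0 ± 20.4 CPM per kb in HKII+/+ hearts. From Mdh1 through Mdh2, Ogdh, Sdhb and Sdha down to Cs, at a mean of 553.6 CPM per kb, each gene's range overlapped that of its neighbour. The values depend on this length: with the length of all annotated exons they were lower by a median of 1.47-fold and by up to 3.46-fold (Dlst). Idh2 then averaged 798.2 CPM per kb and its range overlapped that of Mdh1 (728.4), and Mdh2 stood at 328.9 CPM per kb, below Ogdh, Sdha, Sdhb and Got1.

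By the consensus length the order fell into blocks between which neighbouring ranges did not overlap, and by the length of all exons these blocks were not kept, with Dlst (82.1 CPM per kb), for example, below Dlat (111.7). Below Cs came Pdhb (435.7), Idh3b, Got1, Pdha1 and Idh3g (378.6), then Sucla2 (308.9), Sdhd, Dlst, Idh3a and Got2 (267.3), then Suclg1 (212.7), Dld and Fh1 (177.9), then Dlat (135.3) and Sdhc (126.7), all as means in CPM per kb. Pdhx, at 59.3 CPM per kb, stood apart from both neighbours. The genes lowest per length were Suclg2 (38.3) and Me1 (32.9), Idh1 (26.0), Me3 (20.3), Aco1 (14.8) and Pcx (14.6) and, at the bottom, Me2 (4.78 CPM per kb). These 7 were the lowest by either length. Of them, Idh1, Aco1 and Me1 encode cytosolic enzymes, and Pcx, Me2, Me3 and Suclg2 mitochondrial ones.

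**Figure D3:**
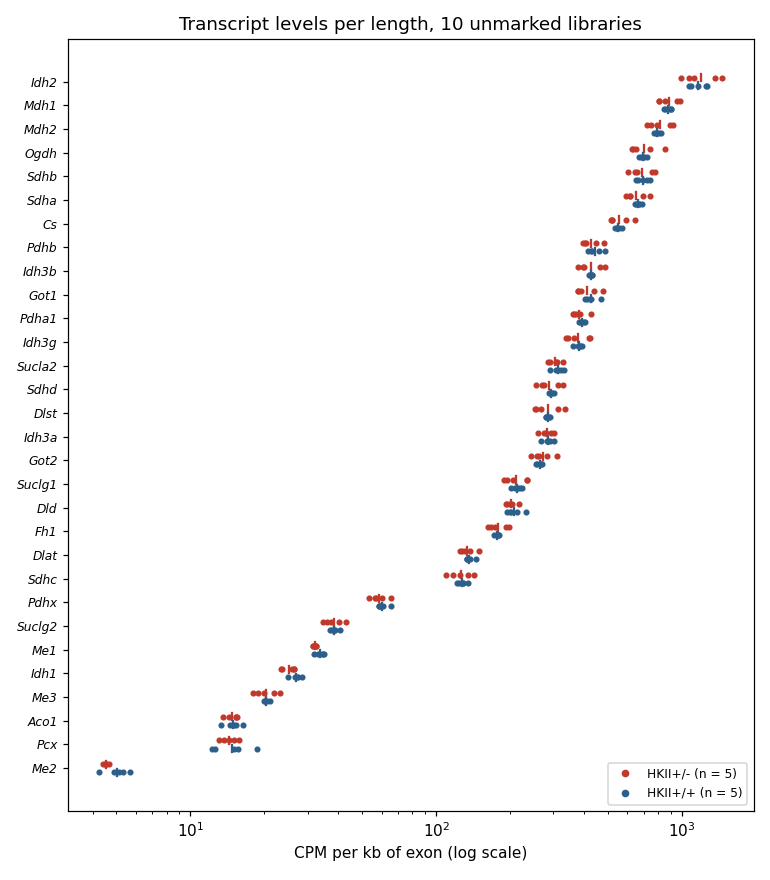
Level of each gene per kilobase of consensus exon (CPM per kb, log scale) in the 10 unmarked libraries, with HKII+/- in red above HKII+/+ in blue, points for libraries and ticks for means. Idh2 lies at the top between 989.9 and 1461 CPM per kb, Me2 at the bottom between 4.26 and 5.66, and the points of the genotypes overlap for every gene.

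Within the pyruvate dehydrogenase complex, the catalytic subunits were the highest parts by mean level per consensus length. Pdhb averaged 427.5 ± 36.8 in HKII+/- and 443.8 ± 28.9 CPM per kb in HKII+/+ hearts, and Pdha1 averaged 382.1 ± 27.2 in HKII+/- and 392.7 ± 9.56 CPM per kb in HKII+/+ hearts (SD, n = 5 each). Dlat, the acetyltransferase of the core, was lower than both, at 134.1 ± 9.43 in HKII+/- and 136.5 ± 5.09 CPM per kb in HKII+/+ hearts. Pdhx, which tethers the dihydrolipoamide dehydrogenase to that core, was the lowest part, at 58.3 ± 4.57 in HKII+/- and 60.3 ± 2.87 CPM per kb in HKII+/+ hearts. Dld, which encodes that dehydrogenase, averaged 204.8 CPM per kb over the 10 unmarked libraries. By the length of all exons Pdha1 (295.5) stood above Pdhb (170.7). The range of Pdhb, 155.7 to 190.8 CPM per kb, then overlapped that of Dld, 133.4 to 159.9. In Pdha1, 21.2% of the exon bases overlap exons of Map3k15 on the opposite strand, and since the strand setting of the counting is not known, reads of the pair may be mixed. The same holds for 14.98% of the exon bases of Got2 and 8.72% of those of Me3, which overlap an unconfirmed transcript (Gm45760) and an antisense gene (A230065N10Rik).

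Among succinate dehydrogenase subunits, which also form complex II of the respiratory chain, the hydrophilic Sdhb and Sdha stood at 690.6 and 657.3 CPM per kb and the membrane anchors Sdhd and Sdhc at 291.1 and 126.7. Of the succinyl-CoA ligase subunits, the ADP-forming Sucla2 (308.9 CPM per kb) exceeded the GDP-forming Suclg2 (38.3), and the shared Suclg1 (212.7) lay between them. Among isocitrate dehydrogenases, the cytosolic Idh1 held 0.0214 ± 0.00367 of the per-length level of Idh2 in HKII+/- hearts and 0.0232 ± 0.00221 in HKII+/+ hearts (SD, n = 5 each). The NAD-dependent subunits Idh3a, Idh3b and Idh3g stood at 283.7, 425.8 and 378.6 CPM per kb. For the malate dehydrogenases the ratio of Mdh1 to Mdh2 per length was 1.08 ± 0.0213 in HKII+/- and 1.11 ± 0.0289 in HKII+/+ hearts. The cytosolic form was the minor transcript for isocitrate dehydrogenase and not for malate dehydrogenase, by either exon length. Pyruvate carboxylase, encoded by Pcx, which makes oxaloacetate from pyruvate, held 0.0377 ± 0.00357 of the per-length level of Pdha1 in HKII+/- and 0.0378 ± 0.00687 in HKII+/+ hearts.

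By the median, the spread between libraries was below that of other expressed genes in HKII+/+ hearts and above it in HKII+/- hearts. The coefficient of variation had a median over the 30 genes of 9.66% in HKII+/- and 3.77% in HKII+/+ hearts (n = 5 each). Over the 8215 genes expressed at least as highly as the lowest of the 30, the medians were 7.43% in HKII+/- and 6.77% in HKII+/+ hearts. These genes were not matched to the 30 for level, so the part of level in this comparison was not tested. The most variable gene was Idh2 in HKII+/- (16.9%) and Pcx in HKII+/+ (17.4%), and the least variable were Me1 in HKII+/- (1.37%) and Idh3b in HKII+/+ (1.47%). The difference in spread between genotypes was not tested. Myl7, the atrial gene described further on, ranged from 0.469 to 903.1 CPM in the 5 unmarked HKII+/- and from 230.2 to 746.3 CPM in the 5 unmarked HKII+/+ libraries.

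Between genotypes, no gene of the pyruvate dehydrogenase complex or the TCA cycle passed the test. With 12 libraries, 0 of 30 passed edgeR's quasi-likelihood test at an adjusted p of 0.05, where 0.0% of the 14107 tested genes passed, and 0 of 30 had an unadjusted p below 0.05, against 0.262% of all genes. With the 10 unmarked libraries 0 of 30 passed, against 0.00707% of 14139 genes (Hk2 alone), and 0 of 30 had an unadjusted p below 0.05, against 2.8%. DESeq2 and limma also called 0 of 30 in both sets of libraries. In all 30 genes the values of the genotypes overlapped, whereas 0.474% of all genes did not overlap in the 10 libraries and 0.0213% did not in the 12.

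How uniform the small differences were in direction depended on the libraries included. With 12 libraries 28 of the 30 log2 fold changes (HKII+/- over HKII+/+) were below 0, and their median was -0.09, against 50.5% of all genes below 0 and a median of 0.00. Without replicate 11 but with the marked HKII+/+ replicate 13, the median over the 30 genes was 0.00. With the 10 unmarked libraries 22 were below 0 and the median was -0.02, against 52.7% of all genes. The median standard error was 0.17 with 12 libraries and 0.069 with 10, so the 10 libraries bound these differences more closely. Across the 30 genes the 95% intervals reached at most from -0.32 (Me2) to 0.28 (Idh2) with 10 libraries and from -1.14 (Me2) to 0.90 (Pcx) with 12. Fewer cells of a type and less RNA per cell cannot be told apart in these bulk samples.

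**Figure D4:**
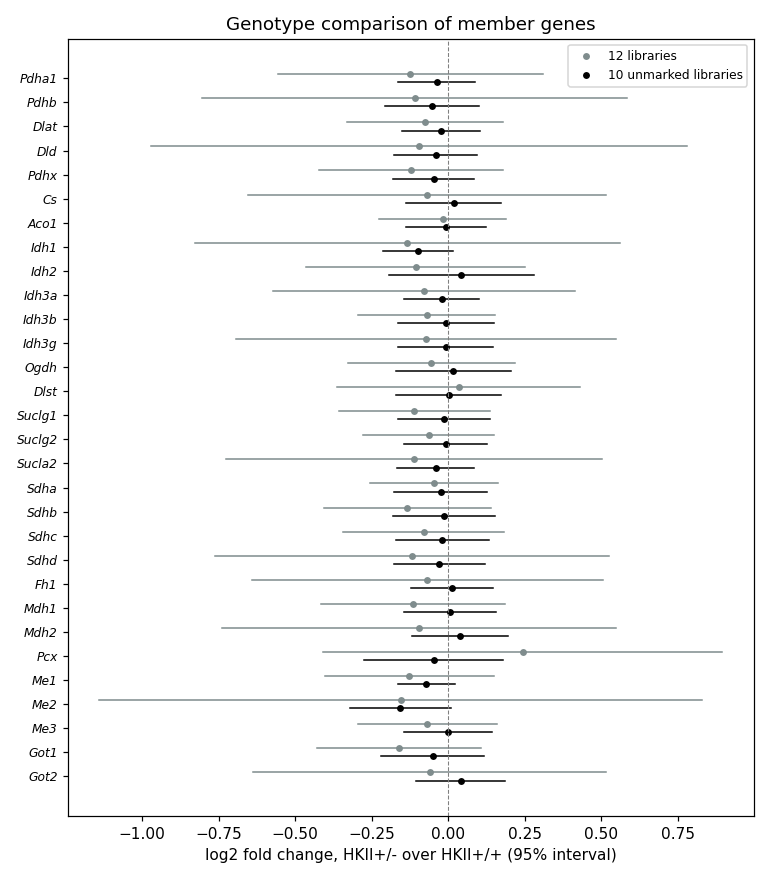
Log2 fold change of each gene, HKII+/- over HKII+/+, with its 95% interval from edgeR, in grey for 12 libraries and in black for the 10 unmarked ones. Every interval spans 0, and those of the 10 libraries reach at most from -0.32 (Me2) to 0.28 (Idh2).

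The genes with the smallest p with 12 libraries were Got1, Sdhb and Me1. Got1, the cytosolic aspartate aminotransferase of the malate-aspartate shuttle, had a lowest, median and highest level of 616.5, 787.6 and 982.9 CPM in HKII+/-, against 833.2, 871.8 and 1037 CPM in HKII+/+ hearts. Replicates 12, 16 and 20 and the marked replicate 11 lay below every HKII+/+ library, while replicates 19 and 22 lay among or above most of them. The log2 fold change was -0.16 (SE 0.12, unadjusted p = 0.215 and adjusted p = 1 by edgeR). Sdhb, the iron-sulphur subunit of succinate dehydrogenase, had 573.7, 744.1 and 886.3 CPM in HKII+/-, against 742.1, 809.6 and 972.6 CPM in HKII+/+ hearts, with overlapping groups and a log2 fold change of -0.13 (SE 0.13). Me1, the cytosolic malic enzyme, which makes NADPH from malate, had 72.3, 115.1 and 117.3 CPM in HKII+/-, against 102.4, 121.3 and 126.0 CPM in HKII+/+ hearts. Its log2 fold change was -0.13 (SE 0.13) with 12 libraries and -0.07 (SE 0.042) with 10.

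With the 10 unmarked libraries the smallest p belonged to Me2, Idh1 and Me1, none of them abundant. Me2, a mitochondrial malic enzyme, measured 11.6, 11.8, 11.9, 11.9 and 12.4 CPM in HKII+/-, against 11.3, 12.9, 13.5, 13.97 and 14.9 CPM in HKII+/+ hearts. Of the HKII+/+ libraries, 4 lay above every HKII+/- library and the fifth, replicate 17, below them all. Its log2 fold change was -0.16 (SE 0.076, unadjusted p = 0.0613 and adjusted p = 1 by edgeR). Idh1, the cytosolic isocitrate dehydrogenase, measured 57.8 to 65.5 CPM (median 64.2) in HKII+/- and 62.0 to 70.4 CPM (median 67.0) in HKII+/+ hearts, with a log2 fold change of -0.10 (SE 0.052, unadjusted p = 0.0818). Both marked libraries stood far below these values, with 16.3 CPM of Idh1 and 2.04 CPM of Me2 in HKII+/- replicate 11 and 25.9 and 2.10 CPM in HKII+/+ replicate 13.

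The 3 genes of highest level per length showed the same overlap. Idh2 (chromosome 7, 80094846 to 80115392, minus strand) had a lowest, median and highest level of 1727, 2004 and 2549 CPM in HKII+/-, against 1861, 2109 and 3317 CPM in HKII+/+ hearts, the last in the marked replicate 13. Mdh1 had 1711, 1876 and 2093 CPM in HKII+/-, against 1800, 1901 and 2914 CPM in HKII+/+ hearts. Mdh2 had 1053, 1227 and 2328 CPM in HKII+/-, against 1116, 1161 and 3043 CPM in HKII+/+ hearts, with the marked libraries highest in both. Their log2 fold changes with 10 libraries were 0.04 (SE 0.11), 0.01 (SE 0.069) and 0.04 (SE 0.073).

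Most of these transcripts were lower in libraries with more Myl7, which encodes the atrial myosin light chain and was used to follow atrial tissue. Its level in the 10 unmarked libraries spanned 10.9 doublings, from 0.469 CPM (HKII+/- replicate 22) and 19.1 CPM (HKII+/- replicate 19) to 903.1 CPM (HKII+/- replicate 20). With genotype in the model, 16 of the 30 slopes passed edgeR's test at an adjusted p of 0.05, all of them lower with more Myl7, where 8.66% of all 14138 genes passed and 2.73% passed as lower. Of the 30, 28 slopes were below 0, against 48.3% of all genes, and the median was -0.03 log2 per doubling of Myl7, against 0.00 over all genes. The 16 called genes were Cs, Idh2, Idh3b, Idh3g, Ogdh, Dlst, Suclg2, Sdha, Sdhb, Sdhd, Fh1, Mdh1, Mdh2, Me3, Got1 and Got2. Their slopes ran from -0.05 (Idh2) to -0.02 (Fh1). None of the 5 genes of the pyruvate dehydrogenase complex passed, though 4 of them, all but Dld, had an unadjusted p below 0.05. So did 23 of the 30 genes, all lower, against 23.7% of all genes in either direction and 10.7% as lower.

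Ogdh, the decarboxylating subunit of the oxoglutarate dehydrogenase complex, had the smallest p. It measured 2797, 2818, 2887, 3311 and 3799 CPM in HKII+/-, against 2985, 3046, 3093, 3125 and 3197 CPM in HKII+/+ hearts. The highest values belonged to HKII+/- replicates 22 and 19, and the other 3 unmarked HKII+/- libraries lay below every HKII+/+ library. Its slope was -0.04 (SE 0.0066, adjusted p = 0.00491 by edgeR). Dlst, of the same complex, measured 700.9, 704.6, 737.6, 861.7 and 921.5 CPM in HKII+/-, against 770.2, 776.2, 783.0, 795.1 and 800.6 CPM in HKII+/+ hearts, in the same arrangement, with a slope of -0.04 (SE 0.0062, adjusted p = 0.00519). Idh3b, a regulatory subunit of the NAD-dependent isocitrate dehydrogenase, measured 608.6, 639.2, 647.5, 747.7 and 788.4 CPM in HKII+/-, against 675.0, 684.9, 692.3, 698.7 and 698.7 CPM in HKII+/+ hearts, again with replicates 22 and 19 highest (slope -0.03, SE 0.0063, adjusted p = 0.011).

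Slopes above 0 were found for Idh1 and Me2 alone among the 30. That of Idh1 was 0.01 (SE 0.0086, adjusted p = 0.702) and that of Me2 was 0.00 (SE 0.013, adjusted p = 0.961). In HKII+/- replicate 22 Idh1 measured 58.5 CPM, the second lowest of the 5 unmarked HKII+/- libraries, and Me2 measured 11.8 CPM, in the lower part of a narrow range. Aco1, the cytosolic aconitase and iron regulatory protein, Pcx and Me1 had slopes of 0.00 as well. These 5 were among the 7 genes lowest per length, and the other 2 of those, Suclg2 and Me3, had called slopes of -0.03 each.

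These calls rested on HKII+/- replicate 22. Without it, 0 of the 30 slopes passed, and without HKII+/- replicate 19, 10 passed. Leaving out HKII+/- replicate 12 gave 7, HKII+/- replicate 16 gave 8 and HKII+/+ replicate 17 gave 10. With total counts in place of TMM factors 3 passed, and without the genotype term 7 passed. Without both 22 and 19 the remaining libraries spanned only 1.97 doublings of Myl7, 0 of 30 slopes passed (0.0835% of all genes did) and 1 had an unadjusted p below 0.05 (Got1, slope -0.10), against 10.9% of all genes. The median slope was again -0.03, with 24 of 30 below 0, against 48.7% of all genes. In that set 6 slopes were above 0: those of Ogdh (0.002239), Sdha (0.003546), Me3 (0.007412) and Idh3g (0.03408), which had been called, and those of Suclg1 (0.006917) and Pcx (0.1029), which had not. With 12 libraries 0 passed, against 0.546% of all genes, and 5 had an unadjusted p below 0.05 (Idh3b, Ogdh, Suclg2, Sdhb and Got1), against 6.58%. On a linear scale of Myl7, an alternative added after seeing the data, 4 of 30 passed with 10 libraries, against 4.99% of all genes. Other markers moved with Myl7 in these libraries: the summed markers of ventricular cardiomyocytes (Myl2, Myl3 and Irx4, all listed) were 12300 CPM in replicate 22 and 11670 CPM in replicate 19, against 8122 to 10900 CPM in the other unmarked libraries. The summed general cardiomyocyte markers were highest there too, at 66880 CPM in replicate 22 and 61200 CPM in replicate 19. In the other unmarked libraries they were 49230 to 59130 CPM. Those of smooth muscle and great vessels, all 5 listed, were lowest in the same libraries, at 261.3 and 281.8 CPM, against 322.4 to 737.4 CPM. Their part in the result was not tested.

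**Figure D5:**
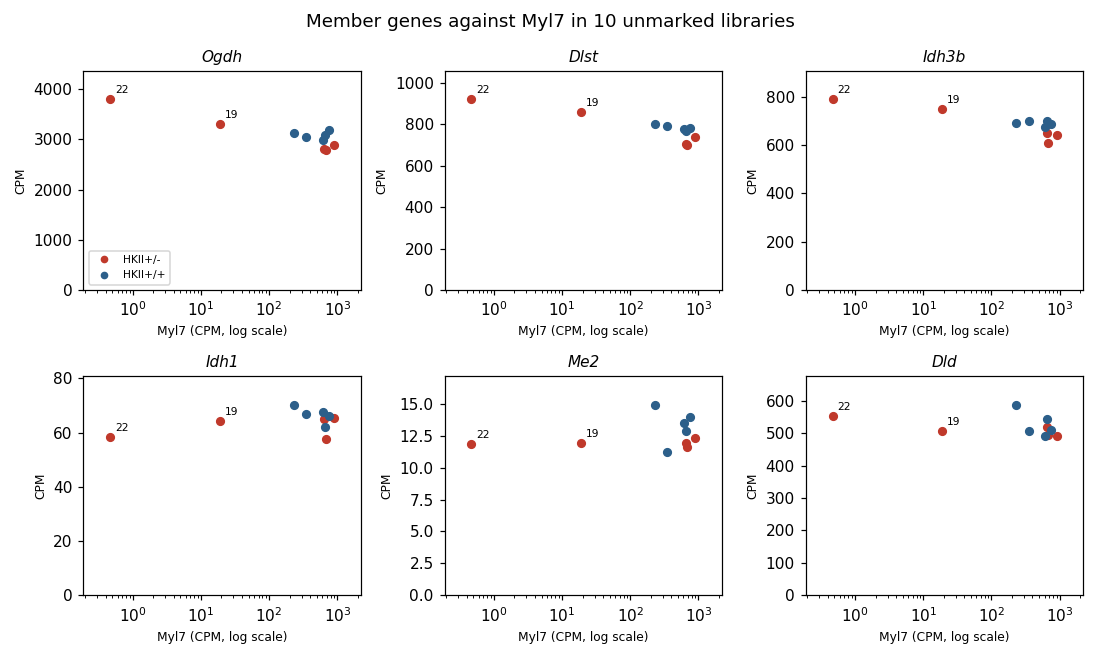
CPM of 6 genes against CPM of Myl7 (log scale) in the 10 unmarked libraries, with HKII+/- in red and HKII+/+ in blue and HKII+/- replicates 19 and 22 numbered. Ogdh, Dlst and Idh3b are highest in replicates 22 and 19, where Myl7 is 0.469 and 19.1 CPM, and Idh1, Me2 and Dld are not.

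With Myl7 held in the model, the genotype differences turned more uniform in sign while none passed. The unmarked libraries with least Myl7, replicates 22 (0.469 CPM) and 19 (19.1 CPM), are both HKII+/-, so this fit does not fully separate Myl7 level from genotype. The genes share their libraries, so their signs are not independent of each other. With Myl7 in the model, all 30 log2 fold changes were below 0 in the 10 unmarked libraries, against 51.1% of all genes, and their median was -0.08, against 0.00. By edgeR's test 0 of 30 passed (smallest adjusted p = 0.889), where 0.00707% of all genes did. An unadjusted p below 0.05 was reached by 8 of the 30, all lower in HKII+/- (Pdha1, Pdhb, Pdhx, Idh3b, Dlst, Sdha, Sdhd and Got1), against 4.86% of all genes in either direction and 2.24% as lower. Got1 had the smallest, with a log2 fold change of -0.14 (SE 0.047, unadjusted p = 0.0118). For Pdhb it was -0.12 (SE 0.051), for Sdhd -0.11 (SE 0.043), for Pdhx -0.11 (SE 0.046) and for Pdha1 -0.09 (SE 0.039).

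Replicates 19 and 22, both HKII+/-, lay above replicates 12, 16 and 20 in 23 of the 30 genes, against 21.7% of all tested genes. Leaving them out therefore lowers the HKII+/- mean of those genes, and it is not a separate test of the genotype difference. With the marked libraries left out as well, 3 HKII+/- and 5 HKII+/+ hearts remained. There 29 of the 30 were below 0, all but Aco1, against 51.0% of all genes, with a median of -0.10, and 0 passed edgeR's test (smallest adjusted p = 0.706), where 0.00696% of all genes did. In this set 9 had an unadjusted p below 0.05, all lower in HKII+/- (Pdhb, Idh3b, Idh3g, Ogdh, Dlst, Suclg1, Sdha, Sdhd and Got1), against 7.02% of all genes in either direction and 3.28% as lower. Of these 9, 6 (Pdhb, Idh3b, Dlst, Sdha, Sdhd and Got1) were also among the 8 above, and the 2 fits share 8 libraries.

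Ratios between paired enzymes compare genes within a library and need no scaling between libraries. Of 10 ratios, none differed between genotypes after adjustment over the 10. With 12 libraries the smallest p belonged to Pdhx over Dlat, with a lowest, median and highest ratio of CPM of 0.232, 0.269 and 0.276 in HKII+/- and 0.265, 0.274 and 0.280 in HKII+/+ hearts. The difference in mean log2 ratio was -0.06 (exact two-sided permutation p = 0.145, adjusted p = 0.868, n = 6 each), and 0.232 was the marked replicate 11. Next came Sdhb over Sdha, at 0.328, 0.412 and 0.428 in HKII+/- and 0.383, 0.419 and 0.500 in HKII+/+ hearts, whose extremes were again the marked libraries (difference -0.09, exact permutation p = 0.333). Got1 over Got2, the cytosolic over the mitochondrial aminotransferase, was 1.17, 1.19, 1.25, 1.27 and 1.30 in unmarked HKII+/- and 1.29, 1.29, 1.29, 1.31 and 1.41 in unmarked HKII+/+ hearts. The difference was -0.09 (exact permutation p = 0.0317, adjusted p = 0.317, n = 5 each), where the smallest p the design allows is 0.00794.

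The same ratios set the marked libraries apart from the rest. Idh1 over Idh2 was 0.00797 in HKII+/- replicate 11 and 0.00781 in HKII+/+ replicate 13, against 0.0229 to 0.0351 in the other HKII+/- and 0.0282 to 0.0364 in the other HKII+/+ libraries. Mdh1 over Mdh2 was 0.836 in replicate 11 and 0.957 in replicate 13, against 1.56 to 1.63 in the other HKII+/- and 1.57 to 1.67 in the other HKII+/+ libraries. Suclg2 over Sucla2 was 0.600 in replicate 11 and 0.391 in replicate 13, against 0.202 to 0.221 in the other HKII+/- and 0.203 to 0.214 in the other HKII+/+ libraries. Members of one pathway thus differed by unequal amounts in the marked libraries, and these ratios do not depend on the scaling factor.

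The surrounding pathway was followed in 37 further genes, of which 35 were listed and tested (all but Sdhaf3 and Sdhaf4). Between genotypes 0 of the 35 passed edgeR's test with 12 or with 10 libraries. The smallest p with 10 libraries belonged to Lias, the lipoyl synthase that serves both dehydrogenase complexes, and to Oxct1, which activates ketone bodies with succinyl-CoA. Lias averaged 40.8 ± 2.52 CPM over 5 HKII+/- hearts, against 43.8 ± 3.15 CPM over 5 HKII+/+ hearts (SD; log2 fold change -0.10, unadjusted p = 0.126 by edgeR). Oxct1 averaged 1240 ± 91.4 CPM in HKII+/-, against 1332 ± 100 CPM in HKII+/+ hearts (log2 fold change -0.10, unadjusted p = 0.179 by edgeR).

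Against Myl7, 6 of the 35 had a called slope in the 10 unmarked libraries, 5 lower and 1 higher, against 8.66% of all genes. Of the 9 genes of pyruvate entry and its control, Pdk2 was lower with more Myl7 (slope -0.03, adjusted p = 0.00967) and Pdk3 higher (0.17, adjusted p = 0.00203), both pyruvate dehydrogenase kinases, which switch the complex off. Of the 14 genes of anaplerosis and succinyl-CoA metabolism, Ogdhl, a relative of Ogdh, was lower (-0.05, adjusted p = 0.00104), as was Pcca, a subunit of propionyl-CoA carboxylase (-0.02, adjusted p = 0.0476). Of the 7 carriers, Slc25a11, which exchanges oxoglutarate for malate, and Slc25a13, an aspartate-glutamate carrier, were lower (-0.04 and -0.03, adjusted p = 0.00965 and 0.0149). Of the 5 tested genes for lipoate and succinate dehydrogenase assembly, 0 passed. Ogdhl measured 243.8 to 362.5 CPM in HKII+/-, against 261.1 to 281.0 CPM in HKII+/+ hearts, and Pdk3 measured 1.78 to 5.76 CPM in HKII+/- and 3.14 to 5.06 CPM in HKII+/+ hearts. The wider range lay in HKII+/- hearts for both.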

How the data were processed

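Poly(A) RNA of 12 hearts was sequenced as single-end reads of 100 nt, per the labels' protocols. Per the submitters' processing notes, the genome build was mm10 (GRCm38) and the tools included STAR 2.4.0 and featureCounts 1.4.4. The values deposited by the authors are whole-number counts per gene symbol. The sources used here give neither the strand setting nor the annotation release. Libraries were taken as separate animals from their titles alone, and the p-values otherwise measure only the spread between samples. The 30 genes, gene lists and tests were chosen with earlier results of these data known.

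Counts were tested with edgeR 4.0.16 (glmQLFit and glmQLFTest, TMM factors, filterByExpr with a minimum count of 10, Benjamini-Hochberg adjustment over all tested genes at 0.05) in R 4.3.3, with genotype, with genotype and log2 CPM of Myl7, or with its slope. CPM are counts over TMM-scaled totals. Single values and ratios were compared by exact permutation of libraries. Exon length, GC content and coordinates came from transcripts of GENCODE vM21 of GRCm38. Of the symbols, 22707 matched directly, 933 by an older symbol, 58 several genes and 363 none. Replicates of a genotype were compared for duplicates, and the lowest chi-square per degree of freedom was 7.03. The fits were tested on simulated counts.

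Values per library are given for the 3 genes highest per length, the 3 of smallest p per genotype fit, the 3 of smallest slope p in each direction, the ratio pairs of smallest p, and, of other pathway genes, the 2 of smallest p and any that passed. Genes and values beyond this rule (Dld, Got1 over Got2 and the other ratios shown in the marked libraries) were chosen after the values were seen. Alternatives were other scalings and filters, DESeq2 1.42.0, limma 3.58.1 (voom, with and without quality weights), covariates and leaving out libraries. Myl7 on a linear scale, total counts for the marked libraries and the length of all annotated exons were added after seeing the data.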

Additional observations from a re-analysis of the deposited data

Results flagged for a closer look

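Each gene was looked at within each genotype for a library whose gap to its nearest neighbour took more of the whole range than Dixon's critical value for 6 samples allows. Such a gap was found in 34 of the 60 groups of 6 libraries, in 20 of the 30 genes. All 34 fell in the libraries that the submitters had marked, 16 in HKII+/- replicate 11 and 18 in HKII+/+ replicate 13, and 0 in any other library. The groups share these libraries, so the chance rate of about 1 in 20 for separate groups does not apply to them together. The share of all tested genes with such a gap was not computed. Of all tested genes, 45.1% lay below the unmarked range and 39.7% above it in replicate 11. In replicate 13, 42.6% of them lay below it and 36.7% above it. With total counts in place of TMM factors there were 47 such groups, again all in these libraries.

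In HKII+/- replicate 11 the level stood apart as the lowest for 13 genes, in CPM: Pdha1 at 461.1, Pdhb at 156.2, Dld at 75.5, Cs at 478.6, Idh1 at 16.3, Idh3a at 262.5, Idh3g at 142.3, Sucla2 at 189.1, Sdhd at 87.2, Fh1 at 141.8, Me1 at 72.3, Me2 at 2.04 and Got2 at 196.0. In the same library it stood apart as the highest for Dlst at 1321, Mdh2 at 2328 and Pcx at 179.9 CPM. In HKII+/+ replicate 13 it stood apart as the lowest for 12 genes, with Pdha1 at 838.5, Pdhb at 301.9, Dld at 180.0, Cs at 997.1, Idh1 at 25.9, Idh3a at 416.7, Idh3g at 264.7, Sucla2 at 375.7, Sdhd at 208.8, Fh1 at 282.5, Me2 at 2.1 and Got2 at 446.5 CPM. It stood apart as the highest there for Idh2 at 3317, Idh3b at 816.7, Dlst at 1201, Mdh1 at 2914, Mdh2 at 3043 and Me3 at 116.9 CPM. Dlst and Mdh2 were the genes that stood apart as highest in both, while Pdha1, Pdhb, Dld, Cs, Idh1, Idh3a, Idh3g, Sucla2, Sdhd, Fh1, Me2 and Got2 stood apart as lowest in both.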

How the results depend on the processing

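The count of genes passing between genotypes was 0 of the 30 under every alternative run (4 scalings, 3 filters, DESeq2, limma with and without quality weights, Myl7 as a covariate, an adjusted p of 0.10 and leaving out each library), with 12 and with 10 libraries. Over all genes it was 0 with 12 libraries and 2 with quality weights. With 10 libraries it was 1 (Hk2) and 3 by DESeq2, and leaving out 1 library gave 0 to 2. The median log2 fold change of the 30 genes stayed between -0.18 and -0.05 with 12 libraries and between -0.08 and -0.01 with 10, and leaving out 1 library gave -0.15 to 0.00 and -0.06 to 0.01.

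The 16 called slopes on Myl7 became 3 with total counts in place of TMM factors and 7 without a genotype term. Leaving out 1 library gave 0 to 21, and leaving out replicates 19 and 22 gave 0. On a linear scale of Myl7, an alternative added after seeing the data, 4 were called, and 0 without replicate 19 or without replicate 22. With log2 CPM of Myl7 and without both, the called slopes that turned were 0.03408 for Idh3g, 0.002239 for Ogdh, 0.003546 for Sdha and 0.007412 for Me3. Fewer samples over a shorter range of Myl7 enter that fit, and the cause of the other changes was not tested. No paired analysis was possible because the replicate numbers are not shared between genotypes. Depth is lowest for Me2, with 32 counts in 1 library, and how much of each gene's spread is counting error was not tested.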
